A study of Mus musculus with 8 samples.

Results

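Gene expression on the array labelled reprogrammed osteocytes was compared with that on both arrays labelled undifferentiated MSCs. MSCs, mesenchymal stem cells, are stromal cells that can form bone, fat and cartilage in culture, and here came from the bone marrow of adult C57BL/6J mice. The comparison takes 3 of the 8 arrays of the series, chosen by the cell type in their labels: 1 array of reprogrammed osteocytes (titled ROS with the suffix p1, and called the ROS array here) and 2 arrays of MSCs (titled d0 and p4). Reprogrammed adipocytes and reprogrammed chondrocytes (titled RAD and RCH, both with p1) had 1 array each and served as a second reference. Differentiated osteocytes, adipocytes and chondrocytes had 1 array each as well and are named only for levels. All 8 arrays share the strain and the source, and no label names a transgene, a reprogramming agent or a culture time. The labels do not explain d and p, and they do not say whether an array holds 1 culture or a pool. The series title speaks of turning lineage-committed cells into MSC-like cells, and the labels do not say whether osteocyte names the cell before or after that step.

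Osteocytes are the cells embedded in bone, formed from osteoblasts, which secrete a matrix made mostly of type I collagen. Collagen chains are folded and hydroxylated in the endoplasmic reticulum (ER) with the help of chaperones before they are secreted. Creb3l1 (also called OASIS) is a transcription factor held in the ER membrane, and in mouse osteoblasts it activates the gene of the type I collagen chain, Col1a1. Outside the skeletal programme, the interferon response is a set of antiviral genes switched on together, and the genes of DNA replication and mitosis are transcribed in dividing cells.

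All values come from log2 intensities of 45281 Illumina probes, of which 9069 genes were tested, each by 1 probe. A level is given as a deposited log2 value. A difference is a log2 difference after an offset of 16 was added on the linear scale, which understates the differences of dim genes. Every array had a median of 3.901 and 12610 probes at a deposited log2 of at least 6, the level used here as detection. Values of 0 were fewer on MSC d0 and the differentiated arrays (4317 to 5204 probes) than on MSC p4 and the reprogrammed arrays (6815 to 7652 probes). MSC p4 shares that property with the ROS array and MSC d0 does not. As there was 1 ROS array, a gene was counted only where that array differed by at least 2-fold from each MSC array in the same direction. With 1 array against 2, the number of arrays limits the precision, and in RNA of whole cultures fewer cells with a transcript and less transcript per cell cannot be told apart.

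By this rule 75 genes were higher on the ROS array than on both MSC arrays, 0.827% of those tested, and 40 were lower, 0.441%. These shares are the background for each count of list members past the rule below. Higher genes made up 65.2% of these 115 (1.27% of those tested), and 82.3% of the calls after each array was centred on its own median. Against MSC d0 alone 290 genes were higher (3.2%) and 413 lower (4.55%), 703 in all (7.75%), and against MSC p4 alone 492 were higher (5.43%) and 418 lower (4.61%). The median absolute log2 difference was 0.36 between the ROS array and MSC d0, 0.38 between the ROS array and MSC p4, and 0.40 between the MSC arrays themselves. Across the 9069 genes, which are not independent replicates, the ROS array correlated at r = 0.962 with MSC d0, 0.952 with MSC p4, 0.974 with RCH and 0.946 with RAD, while both MSC arrays correlated at 0.928. By the same rule RAD had 13 genes higher (0.143%) and 79 lower (0.871%) than both MSC arrays, and RCH had 13 higher (0.143%) and 1 lower (0.011%).

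Limma, with the 7 cell types as groups and the only residual degree of freedom between the MSC arrays, passed 0 genes at an adjusted p of 0.05. Its lowest adjusted p was 1, so every gene named here has an adjusted p of 1, and 111 genes (1.22%) had an unadjusted p under 0.05. Of the 75 higher genes 69 were among these, and of the 40 lower genes 37. The size rule uses the same ROS and MSC values as this fit, so that overlap was largely set in advance and is no support. The single ROS array is assumed in the fit to vary as the MSC pair does. A gene counted by size is therefore a description of these arrays without a replicate check. The unadjusted p-values given below for Creb3l1, Crabp1, Ptx3 and Bmp4 come from values that also chose these genes, so they are no support. The threshold fell within a dense range: Pofut2 at 1.0002 and Hdac7 at 1.002 lay just inside it on the higher side and Mvd at 0.9999 and Ripor1 at 0.9985 just outside, and on the lower side 1700037H04Rik at -1.0018 and Sfxn4 at -1.003 lay inside and Tagap at -0.998 and Pkig at -0.9953 outside.

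**Figure D1:**
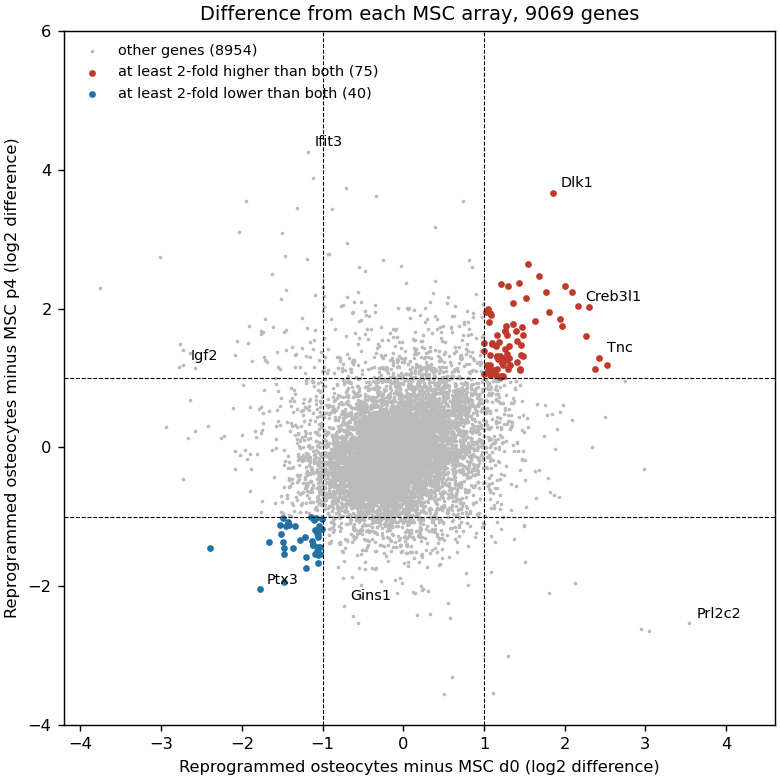
Each point is 1 of 9069 genes, placed by its log2 difference between the ROS array and MSC d0 (horizontal) and MSC p4 (vertical). Dashed lines mark 2-fold, red points are the 75 genes past them in the upper right corner and blue points the 40 in the lower left, while Ifit3, Igf2, Gins1 and Prl2c2 lie far out against 1 MSC array only or in opposite directions.

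The collagen regulator Creb3l1 was among the genes farthest above both MSC arrays. Its deposited log2 level was 8.65 on the ROS array, 6.28 on MSC d0, 6.43 on MSC p4, 6.53 on RAD and 6.28 on RCH. The ROS array stood above all of these by at least 2-fold, and of the 8 arrays only the differentiated chondrocytes, at 7.95, came near it. The log2 difference from the mean of the MSC arrays was 2.10 (SE 0.39, 1 array against 2; limma, unadjusted p = 0.0054), or 4.28-fold. A second Creb3l1 probe, dimmer, gave log2 differences of 1.11 from MSC d0 and 0.98 from MSC p4.

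Col1a1, the type I collagen chain that Creb3l1 activates in mouse osteoblasts, was higher too. Its level was 11.63 on the ROS array, against 10.41 on MSC d0 and 9.25 on MSC p4, 10.09 on RAD and 10.30 on RCH. The differentiated chondrocytes, at 12.37, were the array above it, and the differentiated osteocytes stood at 8.31. The log2 difference was 1.21 from MSC d0 and 2.35 from MSC p4. Col1a2, its partner chain, did not follow, at 11.97 on the ROS array between 12.11 on MSC d0 and 11.64 on MSC p4.

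Calr encodes calreticulin, a calcium-binding chaperone of the ER. It stood at a deposited log2 of 12.38 on the ROS array, 10.10 on MSC d0, 10.76 on MSC p4, 11.17 on RAD and 10.66 on RCH, so that the ROS array was above every other array. The log2 differences were 2.27 from MSC d0 and 1.61 from MSC p4. Calr is transcribed under ER stress through the ER stress response element, the letters CCAAT, any 9 bases and CCACG. Its promoter, from RefSeq on GRCm38.p6, chr8:84846882-84847181 on the minus strand, is shown because it holds that element, in capitals on the strand opposite to the gene:

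Calr: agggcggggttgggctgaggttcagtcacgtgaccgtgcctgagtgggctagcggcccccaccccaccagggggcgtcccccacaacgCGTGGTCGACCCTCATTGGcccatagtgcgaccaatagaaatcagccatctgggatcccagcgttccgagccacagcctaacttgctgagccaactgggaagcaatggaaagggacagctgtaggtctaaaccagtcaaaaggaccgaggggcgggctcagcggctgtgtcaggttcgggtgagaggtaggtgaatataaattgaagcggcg

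The match lies at -162, counted in bases from the start site. These letters, searched on both strands, occur in 0.119% of 32851 mouse promoters of this length, and among the higher genes Calr was the 1 of 60 with a promoter in the table that holds them. A match is a description of the letters, not of binding.

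The other ER and secretion genes had smaller differences. Of the 39 members of that list tested, 2 were higher than both MSC arrays, Creb3l1 and Calr, and 0 were lower (background 0.827% and 0.441%). The list's median log2 difference was 0.23 from MSC d0 and -0.07 from MSC p4, beside -0.10 and -0.07 over all genes. Sdf2l1, an ER chaperone cofactor, was at 8.72 against 7.99 on both MSC arrays (log2 difference 0.70). Hyou1, an ER chaperone of the HSP70 family, was at 7.80 against 6.67 and 7.21. P4hb, the protein disulfide isomerase that is also a subunit of prolyl hydroxylase, was at 12.88, below 13.33 and 13.22, and Creb3l2, the closest relative of Creb3l1, was at 7.32, below 8.02 and 7.95.

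Among 33 collagens and collagen-modifying enzymes 2 were higher and 0 lower (background 0.827% and 0.441%), Col1a1 and P4ha3, a catalytic subunit of the enzyme that hydroxylates collagen prolines. P4ha3 was at 7.02 on the ROS array and at 5.76 and 4.36 on MSC d0 and p4, both under the level of 6, which gives a difference of at least 1.82-fold. The list's median was 0.03 from MSC d0 and 0.31 from MSC p4, beside -0.10 and -0.07 over all genes. Of 37 matrix glycoproteins and proteoglycans 2 were higher and 0 lower, beside the same background, with medians of -0.07 and 0.28.

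These 2 were Fn1, fibronectin, and Tnc, tenascin C, which modulates cell adhesion. Fn1 was at 12.48 on the ROS array, 11.41 on MSC d0, 10.66 on MSC p4, 11.22 on RAD and 11.54 on RCH. Its other probes gave log2 differences from the nearer MSC array of 1.68 and 1.57, beside 1.06 for the probe of highest mean. Tnc was at 10.28 on the ROS array against 7.76 on MSC d0 and 8.96 on MSC p4, but RAD at 10.19 and RCH at 10.41 were level with it, so Tnc was above MSCs on all 3 reprogrammed arrays.

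**Figure D2:**
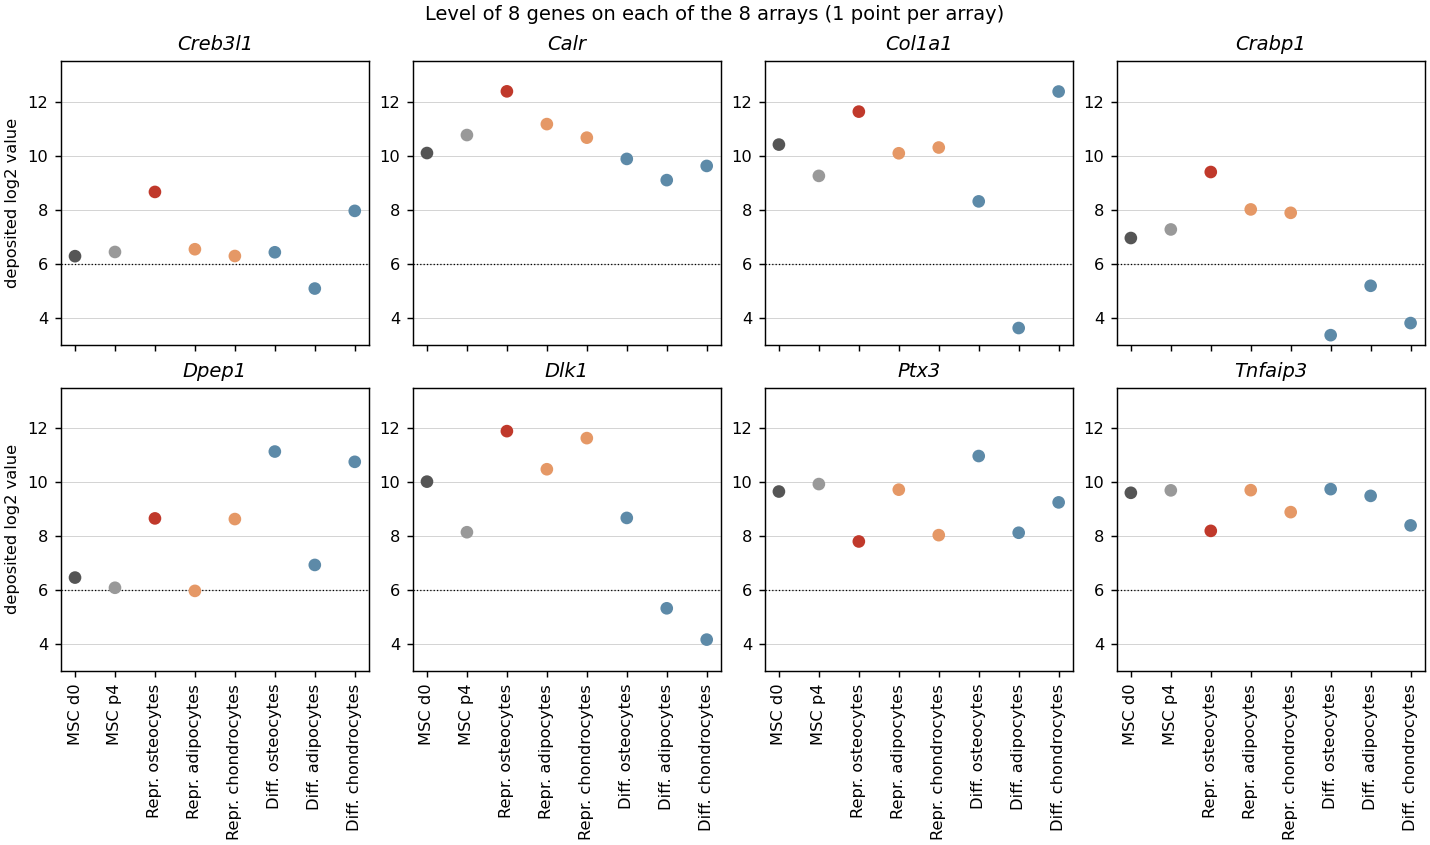
Deposited log2 level (vertical axis) of 8 genes on each of the 8 arrays, 1 point per array, with red for the ROS array, greys for MSCs, orange for RAD and RCH and blue for differentiated cells; the dotted line marks 6. Creb3l1 and Calr are highest on the ROS array, Dlk1 and Dpep1 are shared with RCH, and Ptx3 and Tnfaip3 lie below both MSC arrays.

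Crabp1 binds retinoic acid in the cytosol. Its level was 9.39 on the ROS array, 6.95 on MSC d0, 7.27 on MSC p4, 8.01 on RAD and 7.88 on RCH, and it lay between 3.35 and 5.18 on the differentiated arrays. The ROS array was the highest of the 8, and RAD and RCH also stood above both MSC arrays. The log2 differences were 2.30 from MSC d0 and 2.02 from MSC p4 (4.47-fold against their mean; SE 0.41, 1 array against 2; limma, unadjusted p = 0.0056). Of 17 retinoid genes Crabp1 was the 1 past the rule, and the list's medians were -0.32 and 0.26; the retinoic acid receptor Rara was at 6.92 against 5.98 and 4.54.

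Dpep1 is a membrane dipeptidase that cleaves products of glutathione and leukotriene metabolism. It was at 8.66 on the ROS array and 6.47 and 6.09 on MSC d0 and p4, a log2 difference of 2.01 and 2.32. RCH, at 8.63, was level with the ROS array, and RAD, at 5.97, was level with MSCs. The differentiated osteocytes and chondrocytes were higher, at 11.13 and 10.75.

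Dlk1, an imprinted transmembrane protein of the Notch ligand type that holds back fat cell formation, was, like Dpep1, high on the ROS and RCH arrays. It was at 11.89 on the ROS array, 11.63 on RCH, 10.48 on RAD, 10.02 on MSC d0 and 8.15 on MSC p4. The MSC arrays themselves lay far apart, and the log2 difference was 1.85 from MSC d0 and 3.67 from MSC p4 (SE against their mean 0.87). A second probe gave 3.10 and 4.72. Of 7 imprinted growth genes Dlk1 was the 1 past the rule, and the list's medians were 0.33 and 0.68. Igf2, the imprinted insulin-like growth factor, was at 8.63, between 11.41 on MSC d0 and 7.37 on MSC p4.

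Several of the largest differences were in signalling and trafficking genes that no list held. Gsk3a, a kinase of insulin and Wnt signalling, was at 7.72 on the ROS array and 5.21 and 4.99 on the MSC arrays, at least 2.83-fold higher. Epn1, an epsin of clathrin-mediated endocytosis, was at 7.53 against 5.14 and 5.45 (at least 2.51-fold), and Pcgf2, a subunit of Polycomb repressive complexes, at 7.45 against 5.50 and 5.25 (at least 2.38-fold). Rfng, a glycosyltransferase that modifies Notch, was at 7.84 against 6.17 and 5.99. Gsk3a and Epn1 reached 6 on the ROS array alone of the 8, so they were tested only through that array.

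In the same range of size were enzymes and membrane proteins. Tkfc, a kinase of dihydroxyacetone, was at 8.43 against 6.29 and 6.40, and Vat1, a vesicle membrane protein, at 11.48 against 9.69 and 9.21. Ttyh3, of the tweety family of membrane proteins, was at 9.06 against 7.43 and 6.17, and Rtl8b, a gene derived from a retrotransposon, at 9.56 against 7.81 and 6.95. Each of these 4 was higher on the ROS array than on RAD and RCH as well. Pcdhgc3, a protocadherin, was at 7.86 against 6.15 and 5.32, but the gamma protocadherins share exons, so its probe may read others. Rps23rg1, a retrogene copy of a ribosomal protein gene, was at 6.16 against 3.18 and 2.71 (at least 1.10-fold) and its signal may come from its near-identical source. Rps23rg1, too, reached 6 on the ROS array alone of the 8.

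**Figure D3:**
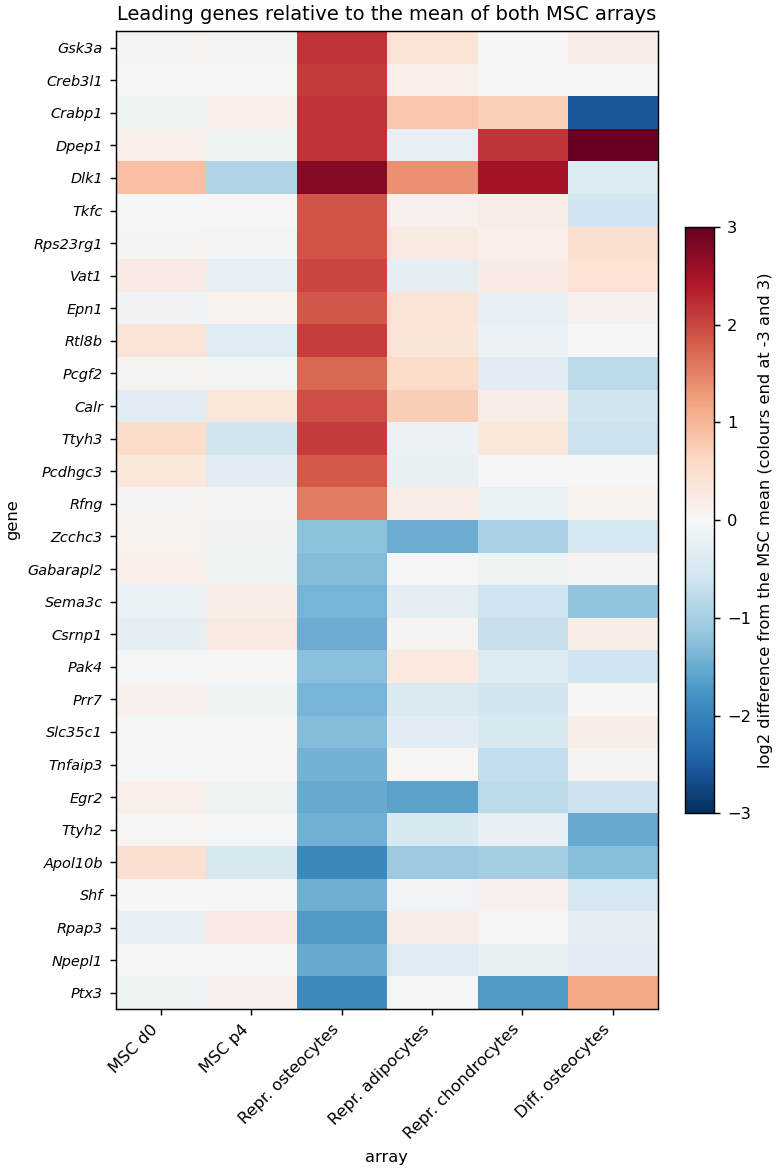
Log2 difference from the mean of both MSC arrays (colour, ending at -3 and 3) for the 15 genes farthest above and the 15 farthest below both MSC arrays, in rows, on 6 arrays, in columns. The column of the ROS array is red in the upper and blue in the lower rows because these rows were chosen by it; among the other reprogrammed arrays Dpep1, Dlk1 and Ptx3 have like colours on RCH.

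Past the rule stood also 3 genes that belong to other lists. Cebpa, a transcription factor of fat cell formation, was at 7.48 against 5.96 and 6.00, the 1 of 24 adipocyte genes that was higher (0 lower; medians 0.13 and -0.01). Pparg, the master regulator of fat cells, was at 10.26, below 10.33 and 11.05. Twist1, a transcription factor of mesenchymal cells, was at 10.12 against 8.88 and 9.06, the 1 of 24 MSC surface and marrow stroma genes past the rule (0 lower; medians -0.02 and 0.24). Sesn2, a stress-induced regulator of growth signalling, was at 8.97 against 7.67 and 7.90, the 1 higher of 24 CDK inhibitor, senescence and p53 genes (0 lower, medians 0.07 and 0.26). A second Sesn2 probe gave log2 differences of 0.91 from MSC d0 and 0.77 from MSC p4.

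On the lower side the largest difference from the nearer MSC array was in Ptx3, long pentraxin 3, a secreted pattern recognition protein that NF-kB and inflammatory cytokines induce. Its level was 7.80 on the ROS array, 9.65 on MSC d0, 9.93 on MSC p4, 9.72 on RAD and 8.04 on RCH. The ROS and RCH arrays were low and RAD was level with MSCs. The log2 differences were -1.78 from MSC d0 and -2.05 from MSC p4 (3.77-fold lower than their mean; SE 0.41, 1 array against 2; limma, unadjusted p = 0.0086). A second probe gave -1.55 and -1.94.

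Tnfaip3 encodes A20, an NF-kB target that in turn shuts NF-kB signalling off. It was at 8.20 on the ROS array, 9.61 on MSC d0, 9.70 on MSC p4, 9.70 on RAD and 8.89 on RCH, lowest on the ROS array of the 8. Ptx3, a marker chosen from these same values, and Tnfaip3 were the 2 of 25 cytokines, chemokines and NF-kB targets past the rule. None was higher, where the background is 0.441% lower and 0.827% higher, and the list's medians were -0.26 and -0.13. The chemokine Ccl7, at 10.92 against 11.85 and 12.31, missed the rule. Nfkbia, another NF-kB inhibitor that is an NF-kB target, was on the other side at 9.21 against 8.39 and 8.25. Both promoters are shown to compare the 2 genes for the NF-kB letters GGG, any 3 bases and TTCC, in capitals on either strand, from RefSeq on GRCm38.p6, for Tnfaip3 at chr10:19015361-19015660 on the minus strand and for Ptx3 at chr3:66219637-66219936 on the plus strand:

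Tnfaip3: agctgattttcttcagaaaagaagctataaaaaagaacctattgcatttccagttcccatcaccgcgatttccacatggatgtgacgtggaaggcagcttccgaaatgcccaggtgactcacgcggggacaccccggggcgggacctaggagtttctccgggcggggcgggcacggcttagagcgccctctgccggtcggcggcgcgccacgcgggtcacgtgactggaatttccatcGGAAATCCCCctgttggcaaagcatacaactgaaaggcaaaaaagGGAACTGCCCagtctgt

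Ptx3: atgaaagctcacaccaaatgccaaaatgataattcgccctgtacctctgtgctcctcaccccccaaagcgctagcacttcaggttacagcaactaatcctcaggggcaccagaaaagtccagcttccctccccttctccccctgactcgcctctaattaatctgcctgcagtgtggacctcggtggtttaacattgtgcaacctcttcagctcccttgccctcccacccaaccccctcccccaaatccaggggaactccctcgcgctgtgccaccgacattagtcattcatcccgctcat

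The Tnfaip3 window holds the letters at -12 and at 34 from the start, and the Ptx3 window does not hold them. A second Tnfaip3 promoter, not shown, holds them at -90. The letters occur in 5.56% of the 32851 promoters, in 4 of 36 lower genes with a promoter in the table (Apol10b, Tnfaip3, Il17rc and 1700037H04Rik) and in 0 of 60 higher genes. Il17rc was lower on the probe used, but other probes gave log2 differences of 0.78 and 0.57, and of 0.36 and -0.12, from MSC d0 and p4. Only this form of the NF-kB site was searched and other forms were not. The absence of these letters from the Ptx3 window therefore does not show that it lacks a site, and says nothing about the factor. The median GC content was 63.17% in the promoters of higher genes, 63.83% in those of lower genes and 61.33% in those of all genes tested.

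Other lower genes act in transcription and signalling. Egr2, an immediate early transcription factor, was at 7.33 on the ROS array, 9.09 on MSC d0 and 8.78 on MSC p4, but RAD was lower still at 7.23. It was the 1 of 22 immediate early genes past the rule (none higher; medians 0.04 and -0.01), and Egr3, at 9.14 against 10.44 and 10.09, missed it against MSC p4. Csrnp1, a nuclear protein induced by Axin, was at 6.58 against 7.92 and 8.49. Pak4, a kinase of the actin cytoskeleton, was at 6.16 against 7.55 and 7.64, and Sema3c, a secreted guidance protein, at 6.56 against 7.90 and 8.30.

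Irs2, the insulin receptor substrate, was at 4.90 on the ROS array, under the level of 6, and at 6.33 and 6.83 on MSC d0 and p4, at least 1.40-fold lower than their mean. It was the 1 of 15 IGF axis genes past the rule (medians -0.16 and -0.04). Pfkfb4, which makes the activator of glycolytic phosphofructokinase, was at 6.38 against 7.58 and 7.83, and was the 1 of 23 glycolysis and hypoxia genes past it. That list otherwise leaned the other way against MSC d0, with medians of 0.60 and -0.12. Aldoa, Pgk1 and Pkm were at 12.48, 13.25 and 13.66 on the ROS array, near 12.21, 13.31 and 13.66 on MSC p4 and above 10.56, 11.83 and 12.48 on MSC d0.

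Of the remaining genes farthest below MSCs, Rpap3, a cofactor of the HSP90 chaperone, was at 6.06 against 7.74 and 8.24, and the fucose transporter Slc35c1 of the Golgi at 8.84 against 10.14 and 10.20. Ttyh2, a relative of Ttyh3, was at 6.33 against 7.99 and 7.87, opposite in direction to it. Gabarapl2, an autophagy protein of the ATG8 family, was at 5.51 against 7.25 and 6.90 (at least 1.89-fold lower than the MSC mean), and Apol10b, an apolipoprotein L gene, at 4.76 against 7.72 and 6.67 (at least 2.04-fold). The second probe of Slc35c1, with log2 differences of -0.18 and -0.29 from MSC d0 and p4, did not reach 2-fold. Nor did those of Gabarapl2, with -0.31 and -0.71, and of Ttyh2, with -0.99 and -0.81. With its probes averaged Slc35c1 was at -0.76 from the MSC mean. The transmembrane protein Prr7, at 4.39 against 6.49 and 6.17, was at least 1.21-fold lower, and for the zinc finger gene Zcchc3, at 4.09 against 6.08 and 5.82, detection gave no fold.

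Npepl1, an aminopeptidase-like protein, and Shf, an SH2 adaptor, differed between their probes. Npepl1 was at 8.88 against 10.39 and 10.44 on 1 probe and at 9.24 against 8.73 and 8.62 on the other. Shf was at 5.78 against 7.51 and 7.48 on 1 and at 6.45 against 6.16 and 6.20 on the other. Over all genes past the rule with several probes, 28 of 29 other probes of the higher genes had the same direction against both MSC arrays and 16 were past 2-fold, while 8 of 13 other probes of the lower genes had the same direction and 2 were past 2-fold.

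The label was checked against the genes of bone. The osteocyte genes Dmp1, Sost, Mepe and Fgf23 were under 6 on all 8 arrays, at 4.05, 3.13, 4.21 and 2.42 on the ROS array, so these defining osteocyte markers were not detected on any array. As no array detected them, the differentiated osteocytes included, their probes do not check the label. Sp7 (osterix), required for bone formation, was at 8.78, below 9.16 on both MSC arrays. Alkaline phosphatase (Alpl) was at 5.33 against 5.33 and 6.15, bone sialoprotein (Ibsp) at 4.94 against 4.44 and 5.07, osteocalcin (Bglap) at 4.06 against 3.56 and 3.60, and Phex, an osteocyte endopeptidase, at 4.89 against 5.09 and 6.17. Sp7, Alpl, Ibsp and Bglap were highest of the 8 arrays on the differentiated chondrocytes, at 12.64, 10.57, 11.70 and 10.98. On the differentiated osteocytes these genes were at 8.58, 5.33, 5.30 and 6.46. The cause was not tested. Phex was under 6 on both arrays. Runx2 and Spp1 had no probe here.

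Of 23 osteoblast and osteocyte genes tested, 2 were higher, Creb3l1 and Col1a1, and 0 lower, where the background is 0.827% and 0.441%. The list's medians were -0.01 and 0.13 beside -0.10 and -0.07 over all genes. Creb3l1 was a marker chosen from these same values and is counted in the ER list too, as Col1a1 is in the collagen list. These list counts are therefore no separate support. Of the 10 bone markers with a probe, 2 reached 6 on the ROS array, 2 on MSC d0 and 4 on MSC p4. Their summed deposited log2 was 53.4, 51.7 and 53.3.

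Markers of the other lineages and of other cells were counted in the same way. Of 7 fat cell markers 4 reached 6 on the ROS array, 2 on MSC d0 and 4 on MSC p4, with summed log2 of 49.9, 42.8 and 46.2. Of 6 cartilage markers 2 did on each (33.0, 31.8 and 32.4), and of 7 MSC surface markers 5, 4 and 5 (56.4, 55.1 and 56.0). Macrophage markers reached 6 for 0, 1 and 0 of 4 (17.1, 19.7 and 16.7), and osteoclast markers for 1 of 4, Ctsk, on each (19.5, 21.8 and 17.7). Endothelial markers reached it for 0 of 4 (11.4, 17.7 and 16.7, with Tek at 0 on the ROS array), and blood markers for 0 of 2 (8.43, 8.50 and 7.78). The part of other cells in the results was not tested.

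Most gene lists had no member past the rule. Of 32 lists, 17 had none in either direction. Among them TGF-beta and BMP genes (30 tested) had medians of 0.03 and 0.02 from MSC d0 and p4, Wnt genes (30) -0.08 and 0.59, cartilage genes (10) -0.26 and 0.34, actin and contractile genes (23) -0.09 and -0.15, glucocorticoid targets (20) -0.14 and -0.29, and DNA methylation and chromatin genes (20) -0.06 and 0.05. Hox genes (11) had -0.17 and 0.06, pluripotency genes (4) 0.01 and -0.06, and ribosomal protein genes (17) -0.06 and -0.10. Macrophage and monocyte genes (8) had -0.27 and 0.06, osteoclast genes (2) -0.52 and -0.30, endothelial genes (3) -0.31 and 0.01, blood genes (3) 0.14 and 0.46 and sex chromosome genes (1) -0.04 and 0.33. With dim genes at their bound, medians against the mean of both MSC arrays went from -0.20 to 0.05 for retinoid genes and from -0.22 to -0.03 for NF-kB targets, with smaller shifts in the other lists of at least 7 genes. Of 40 antioxidant and detoxification genes, and of 27 matrix proteases and inhibitors, Dpep1 was the 1 past it, with medians of 0.12 and 0.16 in the first list and -0.20 and 0.32 in the second.

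**Figure D4:**
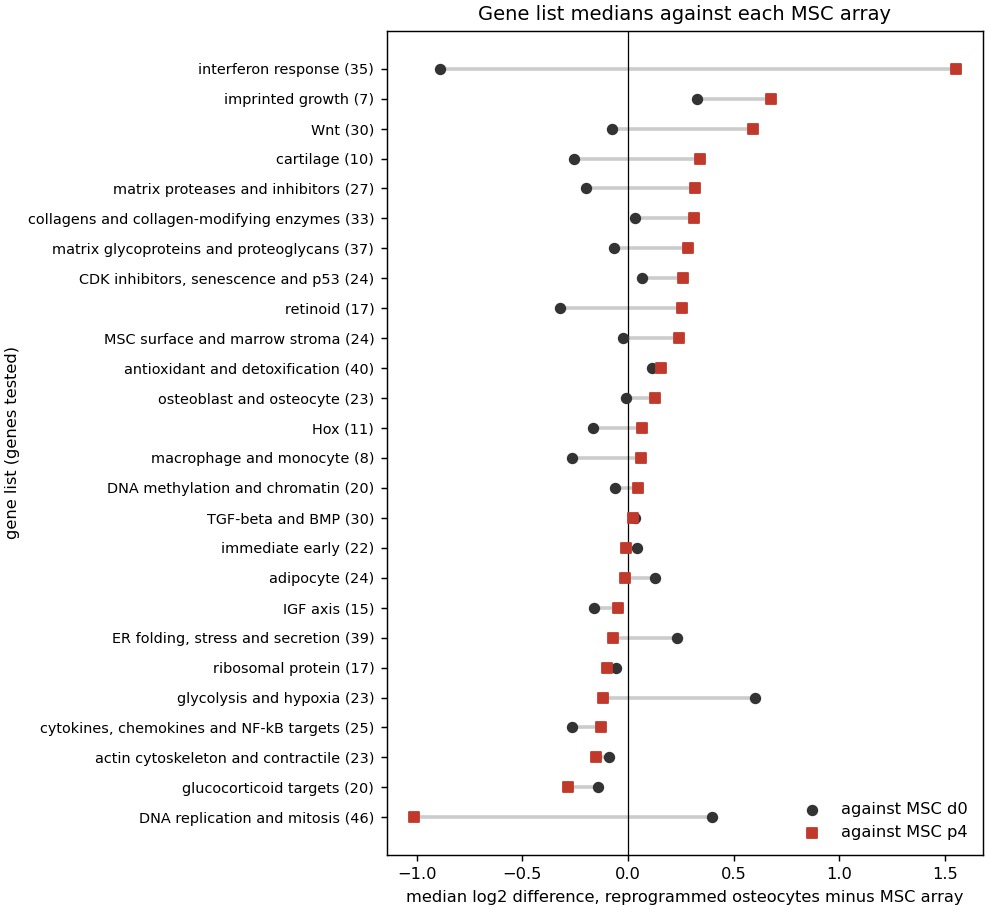
Median log2 difference (horizontal axis) of the ROS array from MSC d0 (black circles) and from MSC p4 (red squares) for the gene lists with at least 7 genes tested (rows, with that number). Interferon and DNA replication lists lie on opposite sides of 0 against the 2 MSC arrays, and the other medians lie between -0.32 and 0.68.

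The lists with the widest differences changed sign with the MSC array. Interferon response genes had a median of -0.89 from MSC d0 and 1.55 from MSC p4, with 0 of 35 past the rule in either direction. Against MSC p4 alone 25 of 35 were at least 2-fold higher, where the background is 5.43%, and against MSC d0 alone 16 were at least 2-fold lower, where it is 4.55%. Ifit3, an interferon-induced antiviral gene, was at 12.70 on the ROS array, 13.89 on MSC d0, 8.37 on MSC p4, 7.23 on RAD and 9.97 on RCH. Isg15, a ubiquitin-like modifier, was at 10.55, 11.27, 6.61, 6.16 and 7.72 on the same arrays.

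DNA replication and mitosis genes did the opposite, with a median of 0.40 from MSC d0 and -1.01 from MSC p4 and 0 of 46 past the rule. Against MSC p4 alone 24 of 46 were at least 2-fold lower (background 4.61%), and against MSC d0 alone 9 were at least 2-fold higher (background 3.2%). Ccna2, the cyclin of S phase and G2, was at 6.27 on the ROS array, 6.49 on MSC d0, 8.10 on MSC p4, 8.59 on RAD and 8.0 on RCH. Gins1, a subunit of the replicative helicase, was at 5.33, 6.28, 8.01, 8.51 and 7.21. Ccna2 and Gins1 were below both MSC arrays, as were 7 of the 46 in all, while 38 of the 46 lay between them. The proliferins, placental hormones of the prolactin family, also lay between the MSC arrays. Prl2c2 was at 11.18 against 7.53 and 13.73, and the 4 members tested had medians of 3.0 and -2.58, with probes that can share signal.

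Genes that set the MSC arrays apart placed the ROS array between them. Of 1307 genes at least 2-fold different between MSC d0 and MSC p4 (14.4%), 1074 lay between on the ROS array, at a median of 43.3% of the way from d0 to p4 (quartiles 18.7% and 66.0%). RCH lay at 65.6% and RAD at 105%. These genes were chosen for the MSC difference, so an array equally far from both lies at 50% and the values describe position only. For 32 interferon genes among them the ROS array was at 39.6%, RCH at 81.2% and RAD at 109%, and for 42 replication and mitosis genes at 26.2%, 65.1% and 106%. For 8 glycolysis and hypoxia genes the ROS array was at 92.7%, near MSC p4, and for 9 matrix proteases and inhibitors at 14.9%, near MSC d0.

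**Figure D5:**
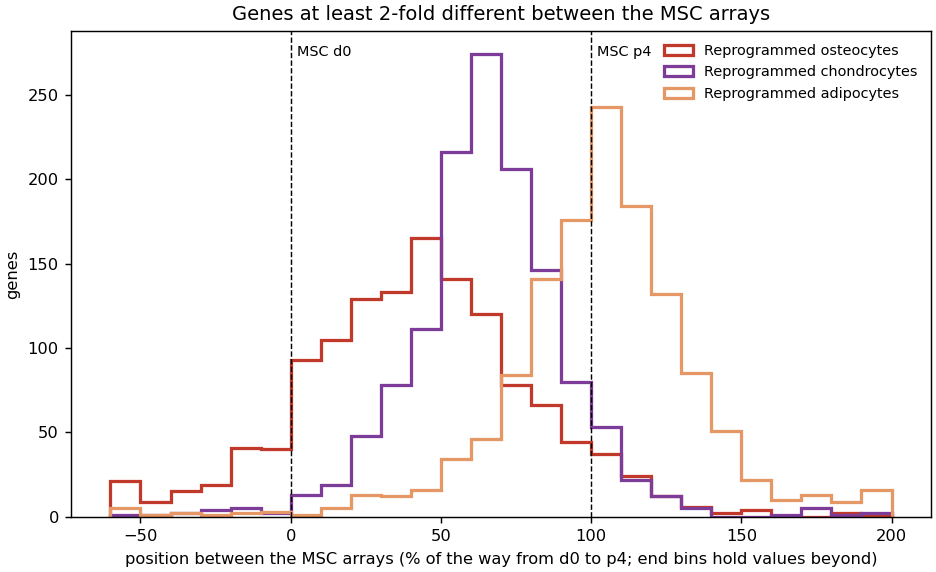
Number of genes (vertical axis) by position between the MSC arrays (horizontal axis, percent of the way from d0 to p4) for the 1307 genes at least 2-fold different between them; the lines are histograms for the 3 reprogrammed arrays. The ROS array has its median at 43.3%, RCH at 65.6% and RAD at 105%.

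The ROS array was also set against the other reprogrammed arrays. Counts by size there use no MSC value, but limma's standard errors and p-values rest on the spread between the MSC arrays. Against both RAD and RCH 143 genes were at least 2-fold higher (1.58%) and 87 lower (0.959%). Limma, in the fit with 7 cell types, passed 0 genes (lowest adjusted p = 1), with 87 (0.959%) at an unadjusted p under 0.05. Of the 75 genes above both MSC arrays 37 were also at least 2-fold above both RAD and RCH and 73 were above both by any amount, and of the 40 below, 9 and 38 were below in these ways. The same ROS array stands in both comparisons and chose these genes, so the counts are a description and no support. Above all 7 other arrays by 2-fold stood 19 genes (0.21%), Creb3l1 not among them because of the differentiated chondrocytes, and 3 (0.0331%) stood below all.

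Bmp4, a bone morphogenetic protein, was the secreted signal with a wide difference in that comparison. Its level was 10.09 on the ROS array, 4.17 on RAD and 7.28 on RCH, with 9.32 on MSC d0 and 8.22 on MSC p4. RAD and RCH lay below both MSC arrays and the ROS array above them, by log2 differences of 0.75 and 1.81. The log2 difference from the mean of RAD and RCH was 3.85 (limma, unadjusted p = 0.0026, adjusted p = 1).

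Of the 8 genes farthest above RAD and RCH the other 7 were interferon-linked. They were Ifit3, Isg15, Usp18, Irf7, Stat2, Dhx58 and Gm4951, an interferon-inducible GTPase gene. Usp18, which removes the Isg15 modifier, was at 10.66 on the ROS array, 5.66 on RAD and 7.69 on RCH, with 11.78 on MSC d0 and 6.57 on MSC p4. Stat2, a transcription factor of the interferon response, was at 9.49, 6.25 and 7.29, with 9.52 and 6.70. In each of these 7 the ROS array lay between the MSC arrays.

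The 8 farthest below were Rpap3, Pramel4, Csnk1a1, ND5, Gins1, Ccna2, Unc5b and Fancm. Gins1 and Ccna2 belong to replication and the cell cycle, and Fancm is a DNA repair helicase. Csnk1a1, a kinase of the Wnt pathway, was at 3.90 on the ROS array, 6.35 on RAD and 6.32 on RCH, with 5.60 and 6.36 on MSCs. ND5, a mitochondrially encoded subunit of respiratory complex I, was at 4.17, 7.22 and 6.46, with 5.83 and 6.37. Both were under the level of 6 on the ROS array, so their differences are bounds at most.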

How the data were processed

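Total RNA was purified with Qiagen RNeasy and biotin-labelled cRNA was made with an Ambion MessageAmp kit for Illumina arrays, per the labels' protocols. The authors deposited log2 values of 45281 probes, whose columns shared a median of 3.901; which software and normalization made them is not given in the sources used here. A second deposited table has 16 value columns that match no label and was not used. Platform annotation named 34885 probes with 1 symbol, 18 with several and 10378 with none here, and 34807 were updated through the RefSeq gene table of GRCm38.p6. Values x became log2(2^x + 16). Genes whose probe reached 6 on at least 1 array were kept (9069), each by its probe of highest mean.

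A gene counted as different at a log2 difference of at least 1 from each MSC array. Where the dimmer side was under 6 throughout, folds are bounds against that level after the offset, 6.32. Limma 3.58.1 (R 4.3.3, lmFit, eBayes, two-sided, Benjamini-Hochberg) took 7 cell types over 8 arrays, with 1 residual degree of freedom. The fit was tested on simulated data in which both MSC arrays shared the same means, unlike the MSC arrays here. That test therefore checks the procedure only. A count of 0 does not show that genes were alike. No label says that arrays came from separate cultures, and p-values then reflect only the spread among these arrays, which may be technical. Alternatives changed the offset, filter, probe choice, centring, MSC array and groups.

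Named genes are the 4 markers given for the comparison, the 15 largest differences per direction, up to 6 members of each of 32 lists past the rule, 10 bone genes, and the 8 largest differences per direction from the other reprogrammed arrays. Any other gene named was picked with its values in view. Members and lists were chosen with earlier results of these data known. Promoters were matched by symbol to RefSeq's table (60 of 75 higher and 36 of 40 lower genes).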

Additional observations from a re-analysis of the deposited data

Results flagged for a closer look

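Differences from the MSC mean opposite in direction to those of both other reprogrammed arrays were found for 5 named genes, and none of these contrasts between arrays was tested, with 1 array each. Bmp4 had a log2 difference of 1.28 on the ROS array, -3.74 on RAD and -1.4 on RCH. Sp7, the bone transcription factor osterix, had -0.37 on the ROS array, 0.32 on RAD and 0.93 on RCH. Bglap, osteocalcin, had 0.23 against -0.22 and -0.08, at levels under 6 on all of these arrays, and it turned negative on the ROS array when its probes were averaged. ND5, the mitochondrial complex I gene, had -1.32 against 0.96 and 0.29, and Fancm, the DNA repair helicase, -0.85 against 0.66 and 0.59. Both were under the level of 6 on the ROS array, at 4.17 and 4.74. With that level in place of the dim values their differences from the MSC mean were -0.08 and 0.05, so no direction is given for them. The comparison shares its MSC arrays between the 3 reprogrammed arrays. No group held 4 or more arrays, so no array was examined as an outlier within its group.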

How the results depend on the processing

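The counts of 75 higher and 40 lower genes moved with the offset and with centring. An offset of 1 gave 126 higher and 101 lower genes, and an offset of 64 gave 33 and 11, as a larger offset shrinks the differences of dim genes. Centring each array on its median gave 102 higher and 22 lower, since the medians of the ROS array lay at -0.09 from MSC d0 and -0.055 from MSC p4. Without 1 of the MSC arrays the counts lay between 290 and 492 higher and between 413 and 418 lower, because 1 array then has to be passed. Other filters and the mean over probes gave 61 to 86 higher and 32 to 50 lower genes. Of the 115 genes, 44 remained with an offset of 64, 97 after centring and 102 with probe means. Limma passed 0 genes under every alternative run, with 86 to 425 at an unadjusted p under 0.05 against MSCs. A block for the d or p of the title was among these alternatives. Only MSCs had arrays with both kinds of title. That fit therefore set the ROS array against MSC p4 alone and is no separate check. The fit of 7 cell types without 1 MSC array had no residual degree of freedom and was not run; 4 groups in its place, chosen after seeing the data, also passed 0. Under the offset, centring and probe choices 66 of 236 differences of named genes moved beyond the MSC spread, and the cause was not tested. That spread is the standard deviation of the 2 MSC arrays. It was 0.0004 for Sp7 and 0.0187 for Shf, so small shifts can count as moved. Bglap turned sign, to -0.36 with its probes averaged. Leaving out MSC p4 turned the sign of genes that lie between the MSC arrays, such as Ifit3 (-1.18). No paired analysis was possible because the ROS array is the only one of its group. Dim genes are limited by background. Of the 75 higher genes 24 were under 6 on both MSC arrays, and of the 40 lower genes 13 were under 6 on the ROS array. Detection bounds the folds of those genes, and many of the bounds are under 2-fold. Among the lower genes 1, Bnc1, was under 6 on both MSC arrays as well, so detection gave it no fold.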

Other observations

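Some genes past the 2-fold rule belong to no list above and are given here as single values, chosen after they were seen. Tnfrsf1a, the main receptor of tumour necrosis factor, was at a deposited log2 of 10.81 on the ROS array, 9.49 on MSC d0, 8.43 on MSC p4, 9.02 on RAD and 8.70 on RCH, and its other probes gave log2 differences of 1.19 and 1.26 from the nearer MSC array. Ltbr, the lymphotoxin beta receptor of the same family, was at 8.86 against 7.47 and 7.31 on the MSC arrays and 7.62 and 7.66 on RAD and RCH. Fgfr1, a fibroblast growth factor receptor, was at 8.03 against 6.65 and 6.15, and Steap3, a ferrireductase of iron uptake, at 8.78 against 7.25 and 6.17. Each of these 4 genes was higher on the ROS array than on any other array.

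Transcription factors outside the lists included Sox4, at 10.86 on the ROS array against 9.82 and 8.87, and Nr2f2 (COUP-TFII), at 7.64 against 6.43 and 5.37. Sox12, a relative of Sox4, was on the lower side, at 6.65 against 7.89 and 8.20, as was Ppard, a nuclear receptor of fatty acids, at 8.98 against 10.07 and 10.24. Scd2, a fatty acid desaturase, was at 8.43 against 6.86 and 7.24.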
